A study of Sus scrofa with 12 samples.

Results

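A group of 9 transcription regulators of skeletal muscle was followed in pig muscle: the myogenic regulatory factors MYOD1, MYF5, MYF6 and MYOG, the satellite cell factor PAX7, the myocyte enhancer factors MEF2A, MEF2C and MEF2D, and the coactivator EYA1. They were chosen by symbol, each symbol matched 1 Ensembl gene, and they are 9 of the 25880 genes listed. All 9 passed the filter on low counts that left 14262 genes for testing. The samples were Semimembranosus muscle, a muscle of the ham, from 12 Italian Large White pigs. In the high IMF group, 6 pigs aged 234 to 244 days had a high intramuscular fat content (IMF), and in the low IMF group 6 pigs aged 229 to 249 days had a low one. Each group held 3 pigs labelled female and 3 labelled male, the males being barrows. The labels give no treatment and no engineered allele, and all pigs shared 1 diet, 1 environment and 1 labelled weight range. Per the study, slaughter was spread over 9 days, and the day of each pig is not among the labels used here.

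Libraries of polyadenylated RNA held between 131048805 and 178013997 counts per pig. These totals exceed the numbers of input reads that the study lists, so a count is not 1 sequenced fragment, and what was counted more than once is not given in the sources used here. Levels are given as counts at a common library size (CPM) after scaling the libraries to each other by the trimmed mean of M-values (TMM). The muscle label was checked against muscle genes: ACTA1, the actin of skeletal muscle fibres, had a mean of 19670 CPM, and CKM, muscle creatine kinase, had 9244 CPM. Counts of the Y chromosome genes EIF1AY and KDM5D went against the labelled sex in 6 of the 12 pigs, which were pigs 3 and 5 of the high IMF group and pigs 7, 8, 9 and 10 of the low IMF group. Values without these 6 pigs, which leave 4 high IMF and 2 low IMF pigs, are given for all 9 genes beside the comparison of the groups. By the same counts pigs 3, 4 and 6 (high IMF) and pigs 9, 10 and 11 (low IMF) were classed as male. These counts cannot tell whether only the sex label of the pigs against it is wrong or whole samples were exchanged. The IMF group and age of the pigs against the label are therefore not certain. An exchange between pigs of the same sex would leave no sign in these counts. The other 6 pigs are thus not shown to carry the right IMF group and age either. None of 6 adipocyte markers passed 0.05 even before adjustment, and their summed level had medians of 91.6 CPM in high IMF and 79.9 CPM in low IMF, with overlapping ranges.

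The myogenic regulatory factors are basic helix-loop-helix proteins that bind DNA at E-boxes as pairs with E proteins such as TCF3 and TCF12. In the embryo MYF5 and MYOD1 set the muscle fate, MYOG drives the fusion and differentiation of myoblasts, and MYF6, also called MRF4, is the member best known from mature fibres. PAX7 marks satellite cells, the stem cells that lie beside the fibre, while MEF2 proteins bind their own A/T-rich site, act together with the helix-loop-helix factors and are held back by class IIa histone deacetylases. EYA1 is a transcriptional coactivator, known for its part in fast fibre genes.

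The 9 genes lie on 6 chromosomes of Sscrofa11.1. MYF5 (chr5:100753440-100755558) and MYF6 (chr5:100762918-100764771) share the minus strand and stand 7359 bases apart. MYOD1 (chr2:41422522-41424236) and MEF2C (chr2:96122407-96296927) are on the minus strand of chromosome 2, and MYOG (chr9:113783233-113785312) is on the minus strand of chromosome 9. On plus strands lie MEF2A (chr1:138398270-138508639), MEF2D (chr4:93581563-93616980), EYA1 (chr4:63970939-64328107) and PAX7 (chr6:77160827-77268626). A RefSeq locus on the opposite strand, LOC110260827, overlaps both MYF5 and MYF6, and LOC102159394 overlaps MEF2C. The strand setting of the authors' counting is not given in the sources used here, so reads of these loci cannot be told apart from those of the 3 genes.

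The 150 bases before the annotated start of each gene were searched for the sites of these same factor families. An E-box (CANNTG, which reads the same way on both strands) was found before 4 of the 9 genes, MYOD1, MYOG, MEF2A and MEF2C, and before 43.4% of 19546 protein-coding genes. A MEF2 site, also searched on both strands, was found before 1 of the 9 genes, MYF6, and before 1.35% of all. With 1 outer letter of the MEF2 site left free, 4 of the 9 genes held a match, MYF6, MYOG, MEF2A and MEF2C, beside 3.34% of all. The matches of the helix-loop-helix genes are shown because MYF6 and MYOG were the family members with the highest levels and MYOD1 carried a match too, while MYF5 had none. Each is given from RefSeq, 5′ to 3′ on the gene's own minus strand, in 30 bases with the matched site in capitals, and the 2 kinds of site did not overlap within them. The MYF6 site lay 34 bases upstream (chr5:100764786-100764815), those of MYOG 116 bases (chr9:113785409-113785438, outer letter free) and 64 bases upstream (chr9:113785359-113785388), and that of MYOD1 132 bases upstream (chr2:41424351-41424380). For MYOG and MYOD1 the annotated start is the start codon, since RefSeq gives no untranslated part. A match is a description of the letters and not a measured binding site.
MYF6 MEF2 site: tcaggagctaCTATATATAAagctggggcg
MYOG MEF2 site, outer letter free: gtggcgttggCTATATTTATctctggttcc
MYOG E-box: aatggcacccagCAGTTGgcgtgaggggct
MYOD1 E-box: cagggtggtggaCAGCTGggtgtgcattca

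Among the myogenic regulatory factors, MYF6 (ENSSSCG00000026533) was the most abundant. Its level ran from 117 CPM to 314 CPM among high IMF pigs, around a median of 232 CPM. Among low IMF pigs it ran from 129 CPM to 329.9 CPM, around a median of 225.5 CPM. The groups covered nearly the same range, with pig 1 lowest among the high IMF pigs and pig 12 lowest among the low IMF pigs. MYOG (ENSSSCG00000034654), the differentiation factor, had 11.0, 21.2 and 22.5 CPM as lowest, median and highest values in the high IMF group. The same values were 9.21, 17.3 and 21.8 CPM in the low IMF group. Pigs 5, 6, 7 and 12, drawn from both groups, had 9.21 to 11.3 CPM, pig 11 had 15.3 CPM and the other pigs lay between 19.4 and 22.5 CPM.

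MYOD1 (ENSSSCG00000013375), a determination factor, was expressed at 3.41, 4.89 and 7.13 CPM, as lowest, median and highest, in the high IMF group. In the low IMF group it had 3.24, 4.64 and 7.81 CPM. The ranges nearly coincided. MYF5 (ENSSSCG00000000937), the other determination factor, was the lowest of all, with 29 to 112 counts per pig. Its lowest, median and highest values were 0.214, 0.547 and 0.713 CPM in the high IMF group and 0.184, 0.311 and 0.642 CPM in the low IMF group. Apart from pig 3 the high IMF pigs had at least 0.487 CPM, and apart from pig 9 the low IMF pigs had at most 0.396 CPM. At such counts the counting error is a larger part of the spread than for the other 8 genes.

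PAX7 (ENSSSCG00000034627), the satellite cell factor, had 2.55, 2.91 and 3.45 CPM as lowest, median and highest values in the high IMF group. In the low IMF group these were 2.05, 3.75 and 4.95 CPM. The high IMF pigs lay close together inside the range of the low IMF pigs, where pigs 7, 9 and 11 stood above every high IMF pig. EYA1 (ENSSSCG00000040728), the coactivator, had 15.3, 19.4 and 26.9 CPM in the high IMF group and 12.0, 18.3 and 20.4 CPM in the low IMF group. One pig of each group, pig 3 above and pig 12 below, stood away from values that otherwise overlapped. In bulk muscle, fewer cells of a type and less RNA per cell cannot be told apart, which bears on PAX7 in the first place.

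Of the MEF2 genes, MEF2C (ENSSSCG00000014149) had 183, 257 and 341 CPM as lowest, median and highest in the high IMF group and 227, 300.3 and 353 CPM in the low IMF group. MEF2A (ENSSSCG00000028771) had 89.7, 184 and 214 CPM in the high IMF group and 198, 221 and 290.0 CPM in the low IMF group. Pigs 2 and 3 of the high IMF group, at 89.7 and 96.8 CPM, lay far below the other 10 pigs, whose lowest value was 172 CPM. MEF2D (ENSSSCG00000006482) had 47.9, 54.1 and 75.3 CPM in the high IMF group and 61.4, 79.7 and 91.3 CPM in the low IMF group. For both MEF2A and MEF2D all 6 low IMF pigs lay above the median of the high IMF group, and for both the ranges still overlapped. For MEF2C 5 of the 6 low IMF pigs did so.

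**Figure D1:**
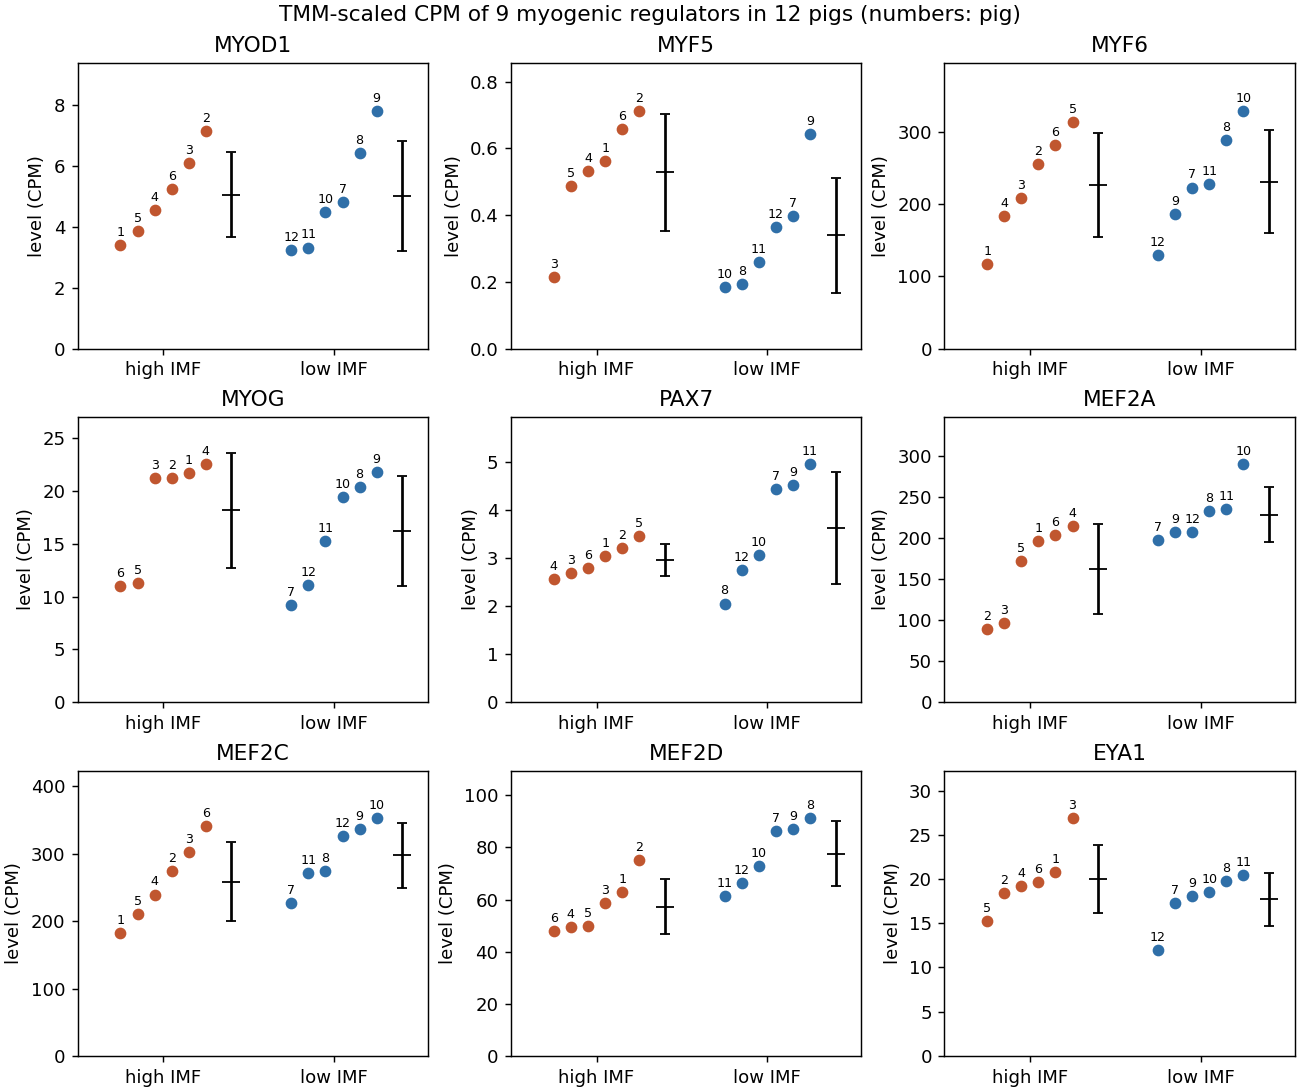
Level of each of the 9 genes (TMM-scaled CPM, linear axis from 0) in the 6 high IMF and 6 low IMF pigs, each point a pig with its number and the bar giving mean ± SD of the group. The groups overlap for all 9 genes, and pigs 2 and 3 stand apart for MEF2A at 89.7 and 96.8 CPM.

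To set the levels of different genes side by side, CPM was divided by the length of the longest RefSeq transcript in kilobases (kb). On this scale MYF6 was highest at 172 ± 51.3 CPM per kb (SD, n = 12), followed by MEF2A at 80.9 ± 23.1, MEF2C at 43.2 ± 8.56 and MYOG at 25.5 ± 7.70 CPM per kb. Lower levels were found for MEF2D (11.0 ± 2.49), MYOD1 (5.24 ± 1.60), EYA1 (2.19 ± 0.407), PAX7 (0.536 ± 0.145) and MYF5 (0.489 ± 0.217 CPM per kb). The top of the list thus held the mature fibre factor MYF6 with MEF2A and MEF2C, and the bottom the satellite cell factor and the earliest determination factor. The differentiation factor MYOG stood above the third MEF2 gene, MEF2D (2.26-fold, higher in 11 of 12 pigs). Each gene was compared with the next within pigs by an exact permutation test over the 12 pigs, two-sided, adjusted over the 8 steps, and 7 steps had an adjusted p at or under 0.05. MYF6 exceeded MEF2A 2.13-fold in 12 of 12 pigs (adjusted exact p = 0.000977), and EYA1 exceeded PAX7 4.15-fold in 12 of 12 pigs (adjusted exact p = 0.000977). PAX7 and MYF5 did not differ beyond their spread (1.18-fold, higher in 8 of 12 pigs, adjusted exact p = 0.281).

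The order depends on the length used. Per kb of coding sequence, MEF2C (196 ± 38.8 CPM per kb) stood above MEF2A (128 ± 36.6), MEF2D (38.6 ± 8.75) above MYOG (25.5 ± 7.70), and EYA1 (10.2 ± 1.88) above MYOD1 (5.24 ± 1.60), while MYF6 (314 ± 93.7) stayed first and PAX7 (2.17 ± 0.585) and MYF5 (0.569 ± 0.252) last. On that scale all 8 steps had an adjusted exact p at or under 0.05, the step from PAX7 to MYF5 included, at 4.10-fold in 12 of 12 pigs. Reads of untranslated parts are counted too, so this scale raises genes with long untranslated parts. The longest transcript and coding sequence were 6.138 and 1.518 kb for PAX7 and 0.887 and 0.762 kb for MYF5. The p over pigs does not cover this error of length. The RefSeq models of MYOD1 (0.960 kb) and MYOG (0.675 kb) hold coding sequence only, so their values per kb of transcript are raised beside those of genes with untranslated parts. Without the 6 pigs whose Y chromosome counts go against the label, 5 of 8 steps passed and the order changed. With only 6 pigs left the exact test has fewer arrangements and a higher smallest possible p. The count of steps that passed can therefore not be set against that over 12 pigs.

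**Figure D2:**
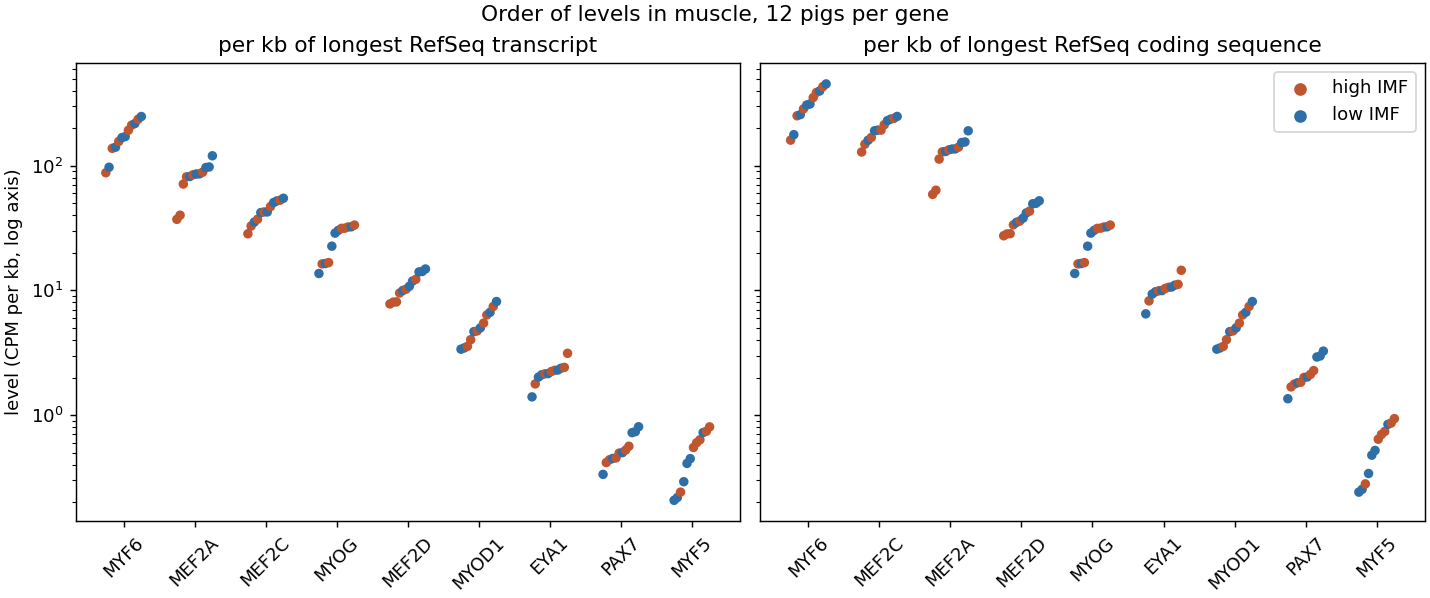
Level of each gene in CPM per kb (log axis) in all 12 pigs, each point a pig, divided by the longest RefSeq transcript on the left and by the longest coding sequence on the right. MYF6 is first on both scales, at means of 172 and 314 CPM per kb, and MEF2A and MEF2C change places between them.

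Within the family of myogenic regulatory factors, MYF6 was the highest member in 12 of 12 pigs on either scale. Its share of the family's summed CPM per kb of transcript was 83.7 ± 6.25% (SD, n = 12), from 70.7% in pig 1 to 91.7% in pig 5. MYOG held 13.4 ± 5.70%, MYOD1 2.66 ± 0.808% and MYF5 0.262 ± 0.137%. The pigs at both ends of the MYF6 share thus belonged to the high IMF group. Within the MEF2 genes measured here, MEF2A held 58.9 ± 9.07%, MEF2C 32.7 ± 7.79% and MEF2D 8.36 ± 2.31%. MEF2A was the highest of the 3 in 10 pigs and MEF2C in 2 pigs, pigs 2 and 3, where the share of MEF2A was 40.4% at its lowest. Per kb of coding sequence MEF2C was the highest in 11 pigs, so the rank of these 2 genes is not settled by counts per gene.

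**Figure D3:**
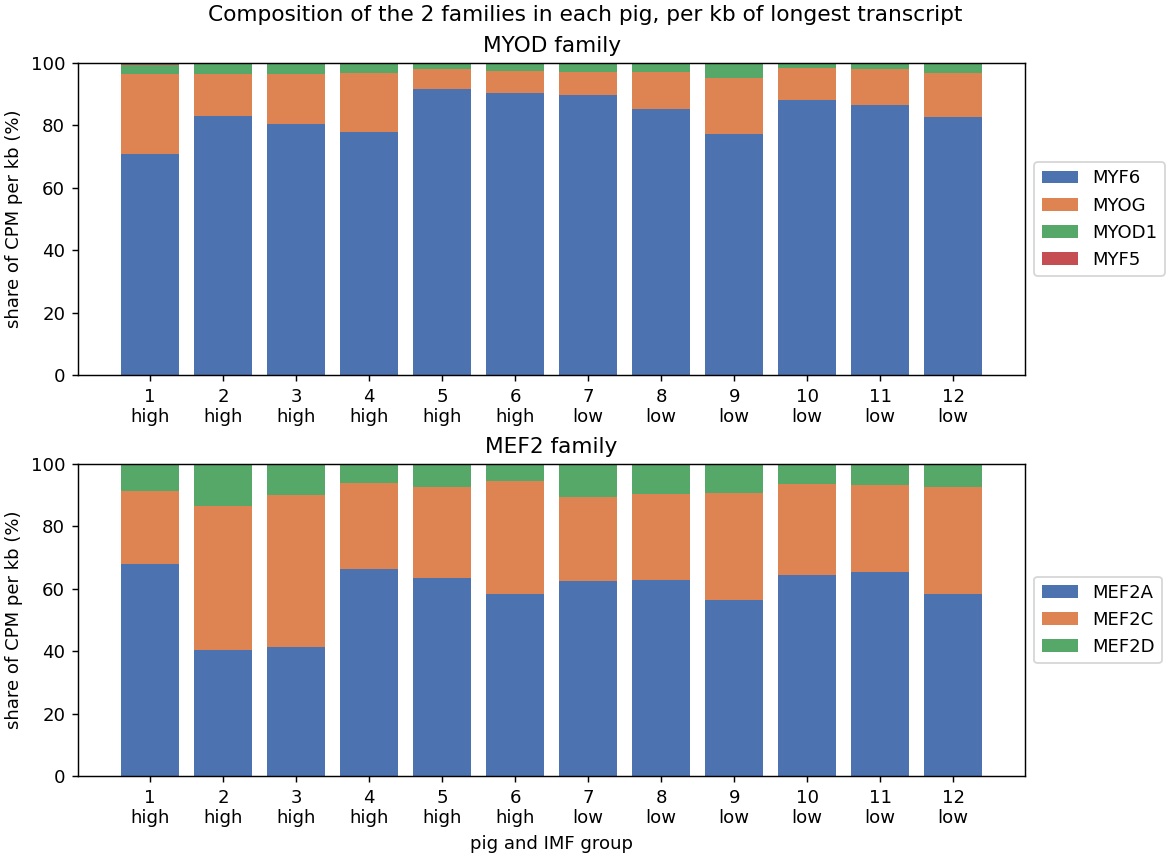
Share (%) of each member in the summed CPM per kb of transcript of its family, 1 stacked bar per pig, for the myogenic regulatory factors on top and the MEF2 genes underneath. MYF6 takes from 70.7% to 91.7% of its family, and the MEF2A share is lowest, at 40.4%, in pig 2.

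The study set pigs with low IMF against pigs with high IMF, and log2 fold changes (log2FC) are low over high IMF. None of the 9 genes differed between the groups at an adjusted p at or under 0.05 in edgeR's quasi-likelihood test, adjusted over all genes by Benjamini and Hochberg's method, and this was so for 0 of 14262 genes tested (0% called). At an unadjusted p at or under 0.05 stood 2 of the 9, MEF2A and MEF2D, both higher in low IMF pigs, beside 10.4% of all genes tested at that level and 5.38% that were also higher in low IMF. DESeq2's Wald test called 95 of the same 14262 genes and limma-voom 0, and neither called any of the 9 genes. Groups that did not overlap were seen for 0 of the 9 genes, beside 0.659% of all genes.

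MEF2D, at 57.3 ± 10.6 CPM (SD, n = 6) in high IMF and 77.6 ± 12.4 CPM (SD, n = 6) in low IMF, had a log2FC of 0.44 (SE 0.14, 95% interval 0.14 to 0.73). Its unadjusted p was 0.00715 and its adjusted p 0.419 by edgeR's quasi-likelihood test, and the exact permutation p of this gene alone was 0.0173, where the smallest p possible is 0.00217. With each pig left out in turn the log2FC of MEF2D lay between 0.39 and 0.53, with an unadjusted p at or under 0.05 in 12 of 12 fits. Without the 6 pigs whose Y chromosome counts go against the label it was 0.13 (SE 0.21, adjusted p = 0.998 in edgeR's test).

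MEF2A, at 162 ± 55.3 CPM (SD, n = 6) in high IMF and 229 ± 33.7 CPM (SD, n = 6) in low IMF, had a log2FC of 0.50 (SE 0.21, 95% interval 0.04 to 0.95). Its unadjusted p was 0.0368 and its adjusted p 0.452 by edgeR's quasi-likelihood test, with an exact permutation p of 0.0238. The low pigs 2 and 3 weighed on this value. Without both, a setting chosen after the levels were seen, the log2FC was 0.22 (SE 0.13, adjusted p = 0.540 in edgeR's test), and leaving out 1 pig at a time kept an unadjusted p at or under 0.05 in 7 of 12 fits. Without the 6 pigs against the label it was 0.34 (SE 0.33, adjusted p = 0.998 in edgeR's test).

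The other 7 genes had intervals that held 0. PAX7 had a log2FC of 0.30 (95% interval -0.13 to 0.73) and MEF2C one of 0.20 (-0.13 to 0.54). MYF6 at 0.03 (-0.50 to 0.56) and MYOD1 at -0.01 (-0.53 to 0.51) had estimates nearest to 0, with intervals that still allow a difference in either direction. MYOG had -0.17 (-0.70 to 0.37), EYA1 -0.18 (-0.50 to 0.14) and MYF5 -0.64 (-1.42 to 0.14). Without the 6 pigs against the label, MYF5 was at -0.98 (SE 0.37), MYOD1 at -0.62 (SE 0.30), MYOG at -0.53 (SE 0.31) and MYF6, with its sign turned, at -0.22 (SE 0.38). In the same pigs PAX7 was at 0.42 (SE 0.26), MEF2C at 0.21 (SE 0.25) and EYA1 at -0.26 (SE 0.22), and edgeR's adjusted p was 0.998 for each of the 9 genes. Single pigs also moved some of these values. MYOG lay at -0.04 without pig 7 and at -0.28 without pig 6, EYA1 at -0.08 without pig 3 or pig 12, MEF2C at 0.12 without pig 1, and PAX7 at 0.18 without pig 11, with none of them changing sign. With the group difference allowed to vary by the class of Y chromosome counts or by the labelled sex, no gene of the 9 had an adjusted p under 0.999 for the difference of differences in edgeR's test.

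**Figure D4:**
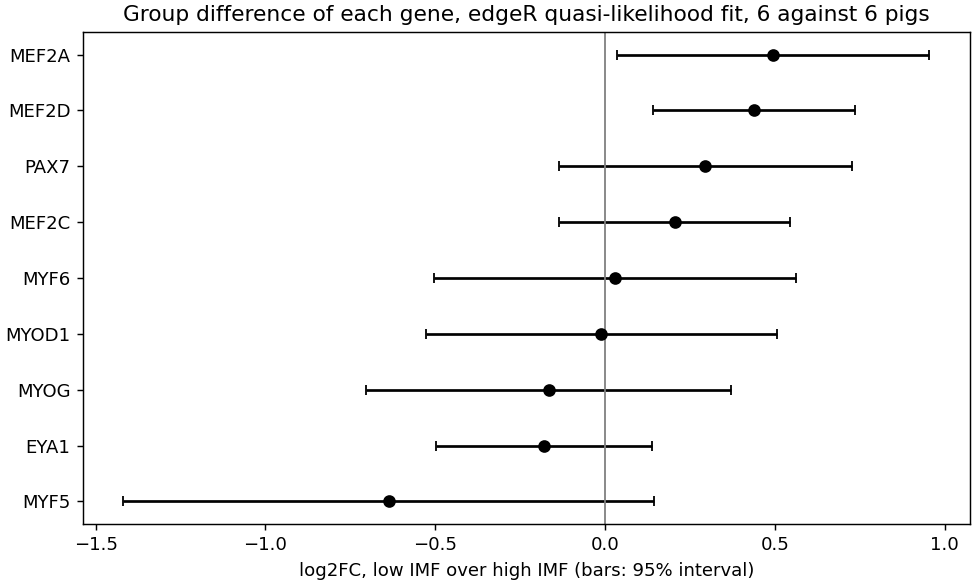
Log2FC of each gene, low over high IMF, from edgeR's quasi-likelihood fit of 6 against 6 pigs, with bars for the 95% interval and a line at 0. The intervals of MEF2A (0.04 to 0.95) and MEF2D (0.14 to 0.73) lie above 0 before adjustment, and the other 7 hold it.

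Fibre type markers were read beside the MEF2 genes, and edgeR called none of them. Of 10 fast and 8 slow fibre symbols listed, 7 and 6 matched an Ensembl gene by name. The fast myosin heavy chains MYH1, MYH2 and MYH4, the slow MYH7 and TPM3 were not matched. These markers, and the slow minus fast measure used further on, thus hold no adult myosin heavy chain. All 7 fast fibre markers tested had a log2FC above 0, with a median of 0.25 beside -0.01 over all genes. Their summed level ran from 22360 to 30580 CPM, around a median of 28170 CPM, in the high IMF group and from 28010 to 38000 CPM, with a median of 31970 CPM, in the low IMF group. At an unadjusted p at or under 0.05 stood ATP2A1, the calcium pump of fast fibres (log2FC 0.46, SE 0.13, edgeR's adjusted p = 0.367), and MYBPC2, the fast myosin-binding protein C (log2FC 0.34, SE 0.12, edgeR's adjusted p = 0.427). The 6 slow fibre markers had a median log2FC of -0.17, with none passing 0.05 before adjustment. Their summed level ran from 1941 to 5054 CPM, around a median of 3632 CPM, in high IMF and from 1393 to 5975 CPM, around a median of 2467 CPM, in low IMF, so the low IMF range held the whole high IMF range. The part of the fibre types in the MEF2 values was not tested.

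The spread between pigs differed among the 9 genes. MYF5 varied most, with an SD of 0.70 on the log2 CPM scale, larger than that of 83.9% of all genes tested, and its highest pig stood 3.89-fold above its lowest. MEF2A (SD 0.50, 3.23-fold), MYOG (0.49, 2.45-fold), MYF6 (0.48, 2.82-fold) and MYOD1 (0.43, 2.41-fold) followed, with SDs above those of 65.2% to 71.8% of genes. PAX7 had an SD of 0.37, MEF2D of 0.33 and MEF2C of 0.30. EYA1 varied least, with an SD of 0.27, above 38.4% of all genes. By this SD the genes at the 2 ends of the level order, MYF6 and MYF5, were both more variable between pigs than most genes. The ranking was not matched for level, and the SD includes counting error. The biological coefficient of variation was 0.309 for MYF6 and 0.441 for MYF5, beside a common value of 0.332.

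It was then asked whether the 9 genes vary together between pigs. Over 12 pigs, 36 pairs of these genes and 27 relations with marker means were computed, and 0 of these 63 relations had an adjusted permutation p at or under 0.05. Of the pairs, 19 of 36 had a Pearson's r above 0, and none passed 0.05 before adjustment by Pearson's r. The highest was MYOG with EYA1 (r = 0.56, permutation p = 0.0522, adjusted p = 0.920, Spearman's rho = 0.36), and without the 2 pigs farthest from the median of MYOG it was 0.73. MYOD1 with MEF2D (r = 0.45, and r = 0.67 with levels centred within each group, permutation p = 0.0205, adjusted p = 0.646) and MYOD1 with MYOG (r = 0.42) came next, and MYOD1 with MEF2A was lowest (r = -0.42). MYF5 and MYF6, neighbours on chromosome 5, had an r of -0.28.

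**Figure D5:**
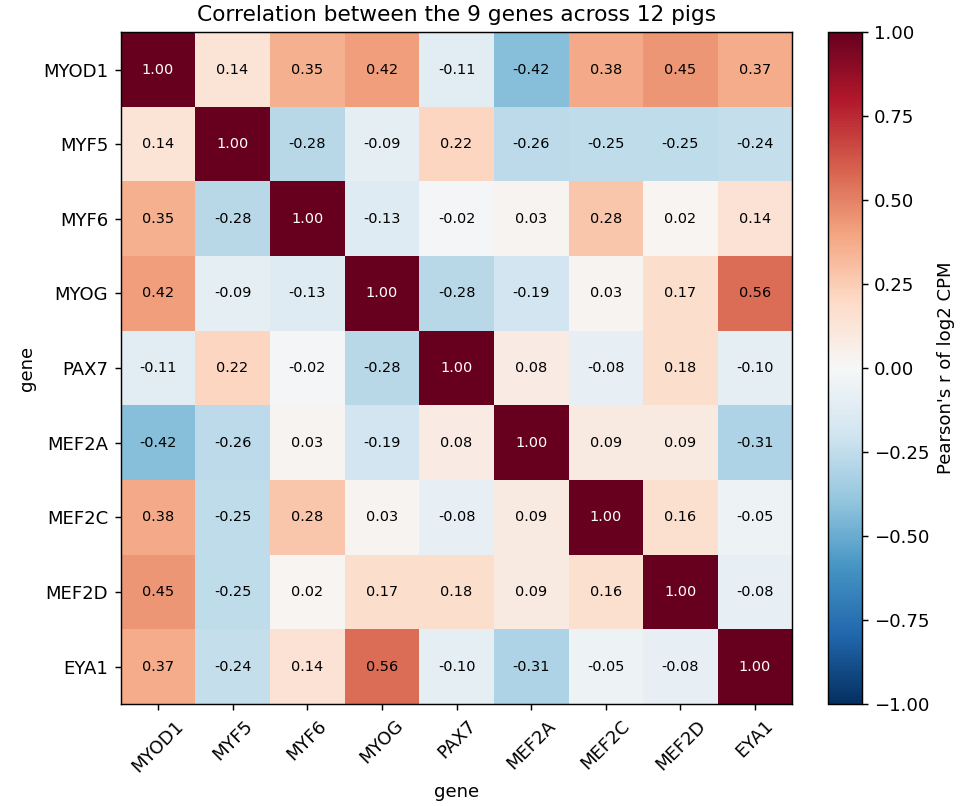
Pearson's r of log2 CPM between each pair of the 9 genes over 12 pigs, with colour and printed value giving r from -1 to 1. The highest pair is MYOG with EYA1 at 0.56 and the lowest MYOD1 with MEF2A at -0.42, and no pair had an adjusted p at or under 0.05.

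Against cell type markers, 1 relation passed 0.05 before adjustment by Pearson's r, that of PAX7 with the mean of endothelial markers (r = 0.59, permutation p = 0.0436, adjusted p = 0.920, rho = 0.55, permutation p of rho = 0.0706). Its r was 0.49 without the 2 pigs farthest from the median of PAX7 (permutation p = 0.150), 0.54 with levels centred within each group and 0.28 without the pigs against the label. By Spearman's rho 1 other relation passed, that of EYA1 with the same markers (rho = -0.65, permutation p = 0.0254, adjusted p = 0.915, r = -0.54). PAX7 and the mean of other satellite cell markers had an r of 0.35 (permutation p = 0.270, adjusted p = 0.920). MEF2D ran against the mean of slow minus fast fibre markers (r = -0.54, permutation p = 0.0739, adjusted p = 0.920), with an r of -0.76 within the high IMF pigs and 0.13 within the low IMF pigs. MEF2C had an r of -0.32 with that measure over all pigs and of 0.28 and -0.84 within the high and low IMF pigs. Neither of these 2 signs held in both groups. With the same measure MYF6 had an r of 0.48 (permutation p = 0.116, adjusted p = 0.920), with 0.76 and 0.33 within the high and low IMF pigs. MYOG had an r of -0.39 (permutation p = 0.211, adjusted p = 0.920), with -0.76 and -0.31. Without the 2 pigs farthest from the median of the gene, r was 0.02 for MYF6 and -0.11 for MYOG. Without the pigs against the label it was 0.80 and 0.07.

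Genes that act with these 9 were read from lists chosen by function. Of the partners and inhibitors of helix-loop-helix factors, 16 were tested, and 4 stood at an unadjusted p at or under 0.05, all higher in high IMF pigs, namely ID2, ID3, ID4 and SNAI1. Of all genes tested, 5.04% stood at that level and were higher in high IMF. ID proteins bind E proteins and keep them from pairing with myogenic factors, and SNAI1 is a repressor that binds E-boxes. ID4 ran from 4.20 to 14.4 CPM in the high IMF and from 1.70 to 4.99 CPM in the low IMF group, with medians of 9.37 and 3.29 CPM. ID2 ran from 4.49 to 11.9 CPM in the high IMF and from 2.96 to 3.96 CPM in the low IMF group, with no overlap. Their log2FC were -1.45 (SE 0.34, adjusted p = 0.276) and -0.92 (SE 0.22, adjusted p = 0.282) in edgeR's test. DESeq2's Wald test on the same genes called both (ID4 adjusted p = 0.00454, ID2 adjusted p = 0.0179), and limma-voom neither (adjusted p = 0.343 and 0.377). Both were known from an earlier analysis of these same libraries, so they are not independent evidence of a direction. The E protein genes TCF12 (log2FC -0.16, SE 0.16) and TCF4 (-0.07, SE 0.12) had means of 62.0 and 36.8 CPM, and the median log2FC of this list was -0.28 beside -0.01 over all genes.

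Of 15 genes tested from the EYA, PAX and VGLL families and their partners, 3 stood at an unadjusted p at or under 0.05, all higher in low IMF, beside the 5.38% of all genes given above. They were EYA4, a relative of EYA1 (log2FC 0.42, SE 0.16), TEAD4, a partner of VGLL proteins (0.35, SE 0.14), and PITX3, a homeobox factor at a mean of 0.465 CPM (0.89, SE 0.37). EYA4 had a mean of 84.2 CPM beside 18.9 CPM of EYA1, 2 levels that were not set per length. The median of the list was 0.01. Of 20 regulators of MEF2 proteins, 1 stood at an unadjusted p at or under 0.05, the calmodulin-dependent kinase gene CAMK2B (0.31, SE 0.13). NFATC1, a target of calcineurin, had 0.44 (SE 0.22), the calcineurin subunit genes PPP3CA and PPP3R1 had -0.05 (SE 0.12) and 0.06 (SE 0.12), and the class IIa deacetylase gene HDAC4 had 0.40 (SE 0.25). The median of this list was 0.05.

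Of 16 muscle targets of these factors, 2 stood at an unadjusted p at or under 0.05, both higher in low IMF, a share not far from that of all genes (10.4% in both directions). They were PPARGC1A, the coactivator that promotes mitochondrial genes (log2FC 0.92, SE 0.35), and SCN4A, the sodium channel of muscle (0.43, SE 0.19). ACTA1 (0.29, SE 0.18) and CKM (0.19, SE 0.15) did not reach that level, and the median of the list was 0.16. Among 6 genes of fusion and development, none stood at that level. MYH3 and MYH8, the embryonic and perinatal myosins, had means of 489.9 and 1079 CPM with log2FC of 0.16 (SE 0.10) and -0.11 (SE 0.12), and the receptor gene CHRNA1 had -0.55 (SE 0.31). Myosin genes are close copies of each other, so the share of reads between them is uncertain. Of 9 satellite cell markers other than PAX7, NCAM1 was higher in low IMF (0.51, SE 0.22) and CXCR4 in high IMF (medians of 6.19 CPM in high and 4.04 CPM in low IMF) at that level, while MET (-0.11, SE 0.14) and ITGA7 (0.11, SE 0.15) were not. The summed level of the satellite cell markers had medians of 167 CPM in high and 166 CPM in low IMF. Over all the lists, 126 genes were tested and edgeR called 0 of them, with 16 at an unadjusted p at or under 0.05, a share near the 10.4% of all genes.

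For each of the 9 genes the genes with the most similar levels over the 12 pigs were looked up among all genes tested, as a description in which all points share the same libraries. MYOG was matched most closely by SERTAD3 (r = 0.97), SIN3A, a corepressor scaffold (r = 0.95), and KCTD6 (r = 0.91). MEF2D was matched by CREBBP, a histone acetyltransferase (r = 0.97), XK (r = 0.96) and CASTOR2 (r = 0.96). The genes most like EYA1 were FOXN2 (r = 0.91), MSTN, the growth inhibitor myostatin (r = 0.91), and NIM1K (r = 0.90). MEF2A stood closest to RAB5C (r = 0.91), PBDC1 (r = 0.91) and ZNF622 (r = 0.87), and MEF2C to HAPSTR1 (r = 0.87), ATP2B1, a calcium pump of the plasma membrane (r = 0.85), and FBXO5 (r = 0.83).

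For the satellite cell factor and the other helix-loop-helix factors the closest genes were again of mixed function. MYF6 was matched by SLC25A17 (r = 0.86), YOD1 (r = 0.85) and APOF (r = 0.83), and PAX7 by SLC10A4 (r = 0.85), OLFML2B (r = 0.82) and CSPP1 (r = 0.81). MYF5 was matched by MCUB (r = 0.88), S100A4 (r = 0.87) and ATP10D (r = 0.83), and MYOD1 by KANK4 (r = 0.87), MLLT10 (r = 0.82) and RCE1 (r = 0.78). None of the 27 genes so named was itself a member of the group of 9 genes. Some of them had low mean levels, such as KANK4 (0.135 CPM), SLC10A4 (0.10 CPM), APOF (0.177 CPM) and FBXO5 (0.305 CPM). With 12 points and 14262 genes, high values of r can come from the search itself, so they carry no test.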

How the data were processed

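Stranded libraries of polyadenylated RNA from 12 pigs were sequenced as read pairs, 2 libraries to a lane. Lanes are not given in the sources used here. Per the study's methods, trimming used Trimmomatic, alignment to Sscrofa11.1 used HISAT2, transcripts were assembled with StringTie and genes were counted with HTSeq. The authors deposited counts for every Ensembl gene in each of the pigs, without any normalization. As given above, their totals exceed the input reads that the study lists. The strand setting and the treatment of reads with several alignments are not given in the sources used here.

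Pigs were grouped by the labels, and the pigs are separate animals. Genes kept by edgeR's filterByExpr were TMM-scaled, and the groups were tested with edgeR's quasi-likelihood model (edgeR 4.0.16 in R 4.3.3), with no term but the group and 10 residual degrees of freedom, and p-values were adjusted over 14262 genes (Benjamini-Hochberg). The study used DESeq2, which is an alternative here (DESeq2 1.42.0, with NA kept as NA) beside limma-voom (limma 3.58.1). The fit was tested on simulated data. The common biological coefficient of variation was 0.332, so with over 131048805 counts per pig the spread between pigs exceeds counting error for all but the lowest genes. Since a count is not 1 sequenced fragment, counting error read from these totals may be too small. Log2 CPM used a prior count of 2. Correlations used 100000 resamples (Python 3.11.15, scipy 1.17.1). Exact tests were two-sided.

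The members and lists were chosen with earlier results of these data known. Named genes are the 9 members, from each list the 2 with the smallest unadjusted p and the 2 with the highest CPM, and the 3 genes most like each member. ID3, SNAI1, PITX3, HDAC4, KDR and EMCN were named after their values were seen. RefSeq annotation of Sscrofa11.1 gave lengths, positions and sequences, and symbols came from a table of gene names that held 14857 of the identifiers. The pigs against the labelled sex were found with a limit of 1000 counts on the 2 Y chromosome genes, set after the counts were seen. Alternatives were other scalings, filters and tests, sex, the class of Y chromosome counts or age as a covariate, and pigs left out.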

Additional observations from a re-analysis of the deposited data

Results flagged for a closer look

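The EYA1 level of pig 12 was 12.0 CPM, the lowest of the low IMF group, and its gap to the next pig, divided by the range of the group, was 0.631, above the critical value of 0.625 for 6 samples. EYA1 in the other 5 pigs of that group lay between 17.3 and 20.4 CPM. In all 18 groups, 9 genes in 2 groups of pigs, were examined in this way, and chance alone marks about 1 in 20. Pig 12 also had the lowest MYF6 and MYOD1 levels of the low IMF group, at 129 and 3.24 CPM.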

How the results depend on the processing

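None of the 9 genes was called in any of 25 other fits across all genes. Of the 126 genes of the lists, DESeq2's Wald test called 2, ID2 and ID4, with either of the 2 filters tried, and other settings called 0. Leaving out 1 pig at a time, the number of the 9 genes with an exact permutation p at or under 0.05 ran from 1 (without pig 8, 10 or 11) to 3 (without pig 3 or 9) around a value of 2. The sign of 2 genes near 0 turned. The log2FC of MYOD1 was 0.0026 with total counts only as scaling and 0.23 without pigs 2 and 3, and it ran from -0.18 to 0.11 with 1 pig left out. The log2FC of MYF6 was -0.22 without the pigs against the labelled sex and ran from -0.11 to 0.16 with 1 pig left out. The cause was not tested. Before adjustment, MEF2A passed 0.05 no longer with age as a covariate (log2FC 0.47, edgeR's adjusted p = 0.516) or without pig 2 (0.37, adjusted p = 0.387), pig 3 (0.38, adjusted p = 0.631) or pigs 8, 10 or 11, each left out alone. Without pigs 2 and 3 together it did not pass either (0.22, adjusted p = 0.540), and without the pigs against the labelled sex both MEF2A and MEF2D did not (0.34 and 0.13, adjusted p = 0.998). PAX7 passed it without pig 8 (0.42, adjusted p = 0.565), and MYF5 without pig 3 (-0.80, adjusted p = 0.581) or pig 9 (-0.92, adjusted p = 0.540), and without the pigs against the labelled sex (-0.98, adjusted p = 0.998). Over all settings the adjusted p of MEF2D in these fits ran from 0.153 to 0.998 and that of MEF2A from 0.306 to 0.998. The number of steps in the order of levels that passed was 7 with any 1 pig left out. The median SD of the 9 genes was 0.43 on the log2 CPM scale and 0.44 with a prior count of 0.5 or with DESeq2's size factors. No paired analysis was possible because the labels give each pig its own number, so that no number is shared between the groups. Depth bears most on MYF5, at 29 counts in its lowest pig.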

Other observations

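Markers of the other cell types of muscle were compared between the groups in the same way, and edgeR called none of them. Of 6 endothelial markers, 4 had a log2FC above 0 and 2 below, with a median of 0.13. CDH5, the cadherin of vessel walls, was higher in low IMF before adjustment (log2FC 0.55, SE 0.16, edgeR's adjusted p = 0.384). PECAM1 had a log2FC of 0.16 (SE 0.13) and TIE1 one of 0.26 (SE 0.17). KDR (-0.10, SE 0.18) and EMCN (-0.09, SE 0.19) were the 2 below 0. Of 6 markers of fibro-adipogenic cells, PDGFRA was higher in high IMF before adjustment (-0.42, SE 0.17, edgeR's adjusted p = 0.441), while the matrix genes DCN (-0.07, SE 0.12) and COL3A1 (0.30, SE 0.19) were not apart from 0. Of 6 adipocyte markers, 4 had a log2FC above 0 and 2 below, with a median of 0.10, and all standard errors were larger than the log2FC beside them, as for ADIPOQ (-0.15, SE 0.54), FABP4 (-0.04, SE 0.30), PLIN1 (0.33, SE 0.49) and CIDEC (0.17, SE 0.53). ADIPOQ, the fat cell hormone adiponectin, had medians of 41.9 CPM in high IMF and 36.5 CPM in low IMF, with highest values of 78.3 and 76.9 CPM. None of 5 macrophage, 5 smooth muscle and pericyte and 3 Schwann cell markers passed 0.05 before adjustment, among them CD163 (0.25, SE 0.18), MRC1 (-0.36, SE 0.26), MYH11 (0.86, SE 0.53), ACTA2 (0.33, SE 0.32) and RGS5 (-0.14, SE 0.23). The part of any of these cell types in the levels of the myogenic genes was not tested.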
